A study of Rattus norvegicus with 28 samples.

Results

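The hepatocyte RNA described here came from cells given the chlorinated furans TCDF (2,3,7,8-tetrachlorodibenzofuran) at 0.1 nM or PeCDF (2,3,4,7,8-pentachlorodibenzofuran) at 0.02 nM, the lower of the 2 doses used for each. The 8 arrays were chosen by these labels from the 28 arrays of the study, 4 for each furan. The study asked which transcripts dioxin-like compounds alter in primary rat hepatocytes, and it also holds arrays of TCDF 10 nM, PeCDF 2 nM, the dioxin TCDD at 0.01 and 1 nM, and untreated cells. Hepatocytes of 2 rats, adult Sprague-Dawley females called A and B, were plated on Matrigel in medium with insulin, transferrin, selenium and 0.1 uM dexamethasone for 48 h. Cells were then treated for 24 h, all furan and control dishes receiving 0.1% DMSO, and the RNA of 3 dishes of a rat was pooled. On every array the furan RNA was hybridised against DMSO RNA of the same rat, once with the furan RNA in red and once in green. The 2 orientations were averaged, which left 4 values: each furan in each rat. Every value below is a log2 ratio of furan RNA to DMSO RNA, so that 1 is a doubling and 0 is no difference. Both furans were tested in the same 2 rats and possibly against the same DMSO RNA, so the p-values measure the spread between these few values. A property of the DMSO RNA of a rat and a response common to both furans cannot be told apart.

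Furans of this kind bind the aryl hydrocarbon receptor (AHR), a transcription factor held in the cytoplasm by chaperones. With ligand bound it enters the nucleus, pairs with ARNT and activates genes through elements with the core GCGTG, first of all the cytochromes of the Cyp1 family, which oxidise planar aromatic molecules. Nqo1, Ugt1a6, Aldh3a1 and Gsta2 belong to the same gene battery and handle quinones, aldehydes and conjugation. PeCDF differs from TCDF by a further chlorine, and since the doses differed too, the furans are given side by side and 0 pairs of compounds were compared.

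Cyp1a2 was higher than DMSO on all 8 arrays and Cyp1b1 was near DMSO on most of them, and the upstream sequence of both is shown for the receptor's core element. The 250 bases before the start site are from a RefSeq promoter table, build GRCr8, in which 2 of the 3 Cyp1 genes searched were matched. Capitals mark GCGTG or its reverse complement CACGC.
Cyp1a2, chr8:66978150-66978399, minus strand: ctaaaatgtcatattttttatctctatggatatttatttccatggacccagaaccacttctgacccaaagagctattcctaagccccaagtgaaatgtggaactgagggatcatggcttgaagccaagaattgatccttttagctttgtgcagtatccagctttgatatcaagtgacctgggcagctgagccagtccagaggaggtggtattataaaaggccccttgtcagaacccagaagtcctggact
Cyp1b1, chr6:21094315-21094564, plus strand: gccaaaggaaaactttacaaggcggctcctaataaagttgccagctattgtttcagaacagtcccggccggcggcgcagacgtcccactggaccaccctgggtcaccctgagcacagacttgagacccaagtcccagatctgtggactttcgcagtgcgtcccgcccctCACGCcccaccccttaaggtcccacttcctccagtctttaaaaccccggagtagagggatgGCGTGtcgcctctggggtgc
The Cyp1b1 window held 1 copy of GCGTG and 1 of CACGC, and the Cyp1a2 window held 0 of either. Of all 33469 windows of this length, 25.9% held the core on either strand. The matches are letters in a window, not sites shown to be bound.

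Cyp1a1, the most inducible of the AHR targets, was higher than in DMSO RNA on all 8 arrays, and with TCDF 0.1 nM it was the gene that passed the test. With TCDF 0.1 nM its ratios were 1.03 (red) and 1.56 (green) in rat A and 1.00 (red) and 1.39 (green) in rat B. With PeCDF 0.02 nM they were 0.62 and 0.73 in rat A and 0.58 and 0.86 in rat B, in the same order of dyes. All 8 arrays are high, and within each furan the rats lie close together. The furan signal was saturated on 3 of the 4 TCDF arrays and on 1 of the 4 PeCDF arrays, where a ratio is a limit that the true ratio may exceed. Fitted to these values as they stand, Cyp1a1 rose 2.37-fold with TCDF 0.1 nM (1.24 ± 0.11, SE, n = 2 rats, adjusted p = 0.048 by limma), and it was 1.62-fold higher with PeCDF 0.02 nM (0.70 ± 0.11, adjusted p = 0.438). The SE does not cover saturation. Of the TCDF arrays only the green one of rat B, at 1.39, measured Cyp1a1 below saturation. The count of 1 call for TCDF 0.1 nM went to 0 with Agilent's own log ratios, with median centring, with no filter, with every probe on its own and in the second session alone.

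Cyp1a2, the constitutive liver member of the family, was also higher on all 8 arrays, and its signal was below saturation on each of them. With TCDF 0.1 nM the 4 arrays gave 0.71 to 0.78, and with PeCDF 0.02 nM 0.27 to 0.33, all of them above 0. The group values were 0.73 ± 0.12 with TCDF 0.1 nM (1.66-fold, adjusted p = 0.257) and 0.29 ± 0.12 with PeCDF 0.02 nM (1.23-fold, adjusted p = 0.613), so neither passed over all genes. Another Cyp1a2 probe gave 0.67 and 0.81 for TCDF in rats A and B, and 0.36 and 0.32 for PeCDF. Both probes therefore place every value above 0.

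**Figure D1:**
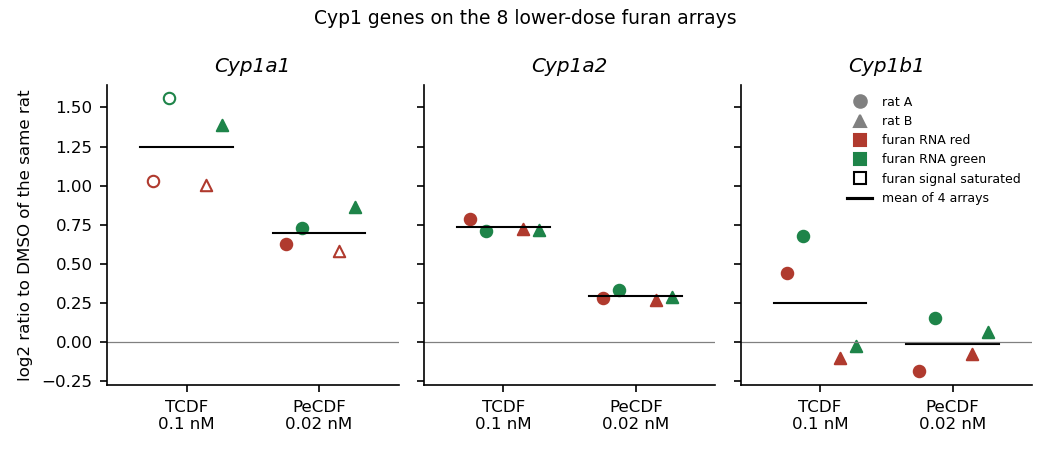
Log2 ratio to DMSO RNA of the same rat for Cyp1a1, Cyp1a2 and Cyp1b1 on each of the 8 lower-dose arrays, with the rat as symbol shape, the dye of the furan RNA as colour, open symbols where the furan signal was saturated, and a line at the mean of 4 arrays. Cyp1a1 and Cyp1a2 lie above 0 on all arrays, whereas Cyp1b1 exceeds 0.2 only on the TCDF arrays of rat A, at 0.44 and 0.68.

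Cyp1b1, which hydroxylates estradiol and aromatic hydrocarbons, showed no such pattern at these doses. TCDF 0.1 nM gave 0.56 in rat A and -0.06 in rat B, and PeCDF 0.02 nM gave -0.02 and 0.00. The Cyp1b1 probe was dim, with furan RNA well above background on 7 of 8 arrays and DMSO RNA on 6 of 8. The DMSO RNA was not well above background on the green TCDF array of rat A, which gave 0.68. The value of 0.56 stands alone, and the other Cyp1b1 probe gave -0.08 in the same RNA. At TCDF 10 nM and PeCDF 2 nM Cyp1b1 had 2.08 and 2.78, and its step from the lower to the upper doses, 2.31 ± 0.15, passed the test (adjusted p = 0.00014). Cyp1a2 rose with dose as well, by 1.19 ± 0.12 (adjusted p = 0.0021), in a fit where the furan signal was saturated on 3 of 4 arrays at each upper dose. Cyp1a1 was saturated on all upper-dose arrays, so its 1.39 with TCDF 10 nM and 1.61 with PeCDF 2 nM are lower bounds.

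Among the rest of the AHR battery, some genes had different values in the rats, but none of those named here passed the test of rat A minus rat B, where the adjusted p of Nqo1 was 0.107, of Ugt1a6 0.119, of Gsta2 0.0961, of Ugdh 0.106 and of Nfe2l2 0.115. Nqo1, the quinone reductase, had -0.02 and 0.08 in rat A and 0.54 and 0.35 in rat B, TCDF before PeCDF. Ugt1a6, which conjugates phenols with glucuronic acid, had -0.06 and 0.09 in rat A and 0.53 and 0.33 in rat B. Both genes were higher in rat B on every array, by values that were larger with TCDF 0.1 nM. Gsta2, a glutathione transferase, was below DMSO in rat A (-0.29 and -0.54) and above it in rat B (0.10 and 0.08), and so was Ugdh, which makes UDP-glucuronic acid (-0.18 and -0.09 in rat A, 0.15 and 0.13 in rat B). Nfe2l2, the NRF2 transcription factor, was the reverse, with 0.31 and 0.26 in rat A and 0.07 in rat B with each furan. Tiparp, a feedback inhibitor of the receptor, ranged from -0.09 to 0.23, and Aldh3a1, an aldehyde dehydrogenase, from -0.14 to -0.02. The amino acid transporter Slc7a5 and the cytochrome Cyp2s1 stayed between -0.08 and 0.20.

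Of the 12 battery genes measured, 0 passed in the joint test of the 4 values, in which 0% of all 34804 genes were called. At an unadjusted p under 0.05 there were 4 higher genes (Cyp1a1, Cyp1a2, Nqo1 and Nfe2l2) and 1 lower gene (Aldh3a1), against 5.89% higher and 6.48% lower among all genes. The median of the battery was 0.12, against 0.000449 over all genes. The joint value of Cyp1a1 was 0.97 ± 0.12 (adjusted p = 0.102 by limma) and that of Cyp1a2 0.51 ± 0.09 (adjusted p = 0.132). The list of the receptor, its partners and its chaperones gave small values on the probes used. All 10 were measured and 0 reached an unadjusted p of 0.05, with the chaperone Ptges3 at 0.13 ± 0.08, Ahr at 0.04 ± 0.03 and Arnt at 0.06 ± 0.03. Other probes of the chaperone Hsp90aa1 averaged 0.30, 0.16 and 0.11, against -0.02 on the probe used, and another of Hsp90ab1 averaged -0.31, against -0.02.

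**Figure D2:**
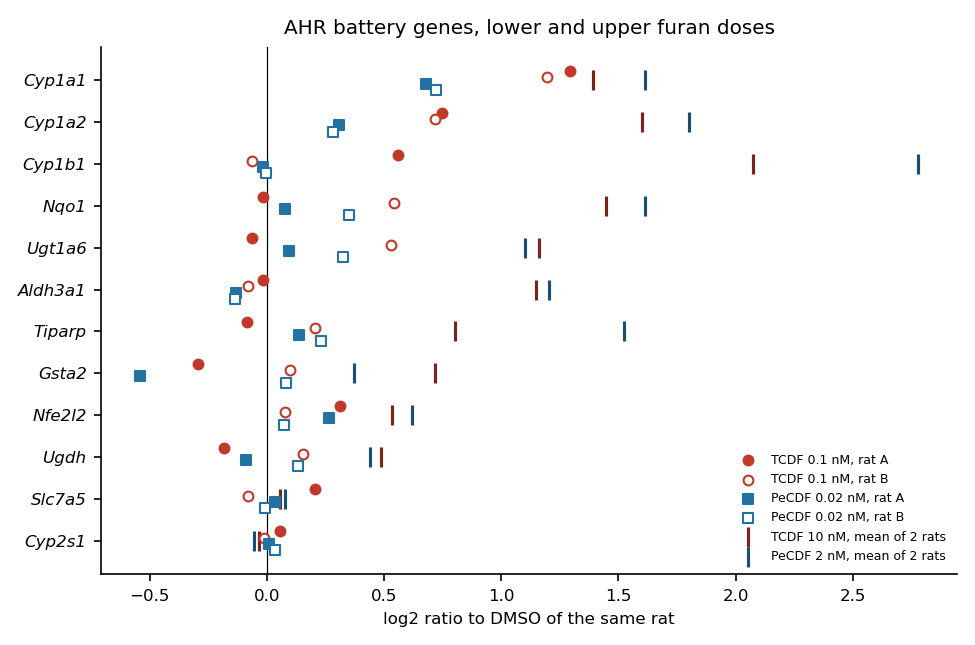
Log2 ratios to DMSO of the 12 measured AHR battery genes, with 4 lower-dose values per gene (furan by colour, rat A filled, rat B open) and the mean of 2 rats at each upper dose as vertical ticks. Of the 12 genes, Cyp1a1 and Cyp1a2 have all 4 lower-dose values above 0.25, while the ticks of Cyp1b1, at 2.08 and 2.78, lie far from its lower-dose values.

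Across all genes few passed a test at the lower doses. A lack of calls from 4 values of 2 rats does not show a lack of differences. The joint test with limma called 0 genes, the smallest adjusted p being 0.102, and 4307 genes (12.4%) had an unadjusted p under 0.05, 2051 higher and 2256 lower. TCDF 0.1 nM alone gave 1 call (Cyp1a1, 0.00287% of genes) and PeCDF 0.02 nM alone 0 (0%), with 2653 and 2652 genes at an unadjusted p under 0.05. When the mean of both furans was tested within the fit of all 7 groups, which takes its spread from the whole study, 53 genes were called (0.152%), 32 higher and 21 lower. That fit called Cyp1a1 (adjusted p = 0.0149) and missed Cyp1a2 (adjusted p = 0.0531). In untreated cells, which received no furan, the same fit called 15 genes, 8 higher and 7 lower. There 10.7% of genes had an unadjusted p under 0.05, and 25 genes passed 1.5-fold. The label of these cells names no DMSO, so the solvent may have a part in their ratios, which was not tested. Of the 22 genes whose joint mean passed 1.5-fold, 2 were higher and 20 lower. Cyp1a1 was the higher gene with a symbol. The lower ones with a symbol included Pnpla3, Scd2, Gstp1, Fasn and Fads1, which did not pass (adjusted p = 0.21 to 0.351) and were low mainly in rat A. The rats differed in the other direction too. Sv2b had -0.39 and -0.29 in rat A and -1.15 and -0.60 in rat B, TCDF before PeCDF. Most of the lower genes without a symbol were also lower in rat B. Scd2, a fatty acid desaturase, averaged -1.43 in rat A and -0.16 in rat B, and Gstp1, a glutathione transferase, -1.27 and -0.31.

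**Figure D3:**
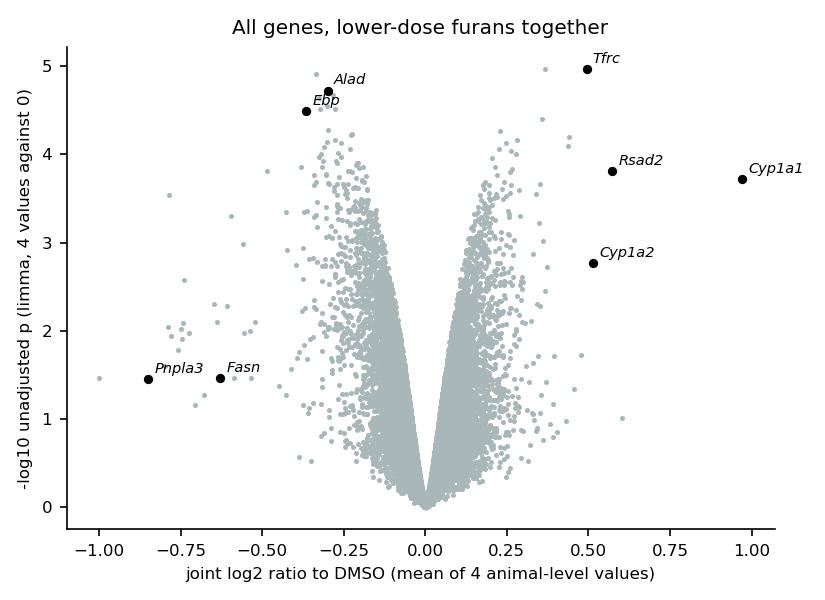
Joint log2 ratio of the lower-dose furans (mean of 4 values, horizontal) against -log10 of the unadjusted limma p (vertical) for every gene tested, with 8 genes labelled. Cyp1a1 lies farthest to the right at 0.97, whereas genes far to the left such as Pnpla3, at -0.85, lie lower in the plot than Cyp1a1 does.

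The 20 genes of smallest joint p, 10 in each direction, with the same sign on all 8 arrays are described next because no gene was called. None of these 20 genes passed in the joint test, each with adjusted p = 0.102, and the choice itself favours values that are even across rats and furans. Tfrc, the transferrin receptor that takes up iron, had 0.53 and 0.47 with TCDF 0.1 nM in rats A and B, and 0.58 and 0.39 with PeCDF 0.02 nM. Its joint value was 0.49 ± 0.04, TCDF 10 nM gave 0.49 and PeCDF 2 nM 0.66, and untreated cells had 0.19. Another Tfrc probe averaged 0.34 but was less even. It had 0.05 and 0.36 with TCDF 0.1 nM in rats A and B, and 0.69 and 0.26 with PeCDF 0.02 nM. Rsad2, an interferon-induced antiviral protein, had 0.65, 0.61, 0.32 and 0.71 in the same order, and 0.70 and 0.73 at the upper doses, although its other probe averaged 0.14. On the probes used, both genes were high on all 8 arrays, and the upper doses lay in the range of the lower ones or just above it.

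Other higher genes were Insig2, which retains the sterol-regulated SREBP factors in the endoplasmic reticulum (joint value 0.26, and 0.24 on a second probe), and Fgl1, a protein secreted by hepatocytes (0.23). Nifk, a nucleolar protein (0.35), Pno1, a ribosome assembly factor (0.18), and Hmgn2, a nucleosome-binding protein (0.26), each had a probe near 0, at 0.01, 0.02 and 0.00. The remaining Pno1 probe gave 0.18 and the remaining Hmgn2 probe -0.01. Yae1, an adaptor for iron-sulfur cluster transfer, had 0.28, and C5l1 had 0.20. Among the lower genes, Alad, an early enzyme of heme synthesis, had -0.34, -0.28, -0.31 and -0.27, with -0.39 and -0.52 at the upper doses and 0.02 in untreated cells. Ebp, a sterol isomerase of cholesterol synthesis, had -0.43, -0.31, -0.41 and -0.31, with -0.46 and -0.57 at the upper doses. Gchfr, which regulates GTP cyclohydrolase, had a joint value of -0.28 but 0.02 on its other probe. The joint values of Sstr3, a somatostatin receptor, Fads3, of the fatty acid desaturase family, Ddah2, a hydrolase of methylated arginines, Osbpl1a, an oxysterol-binding protein, Agrn, a proteoglycan, Cadm1, an adhesion molecule, and Cenpj, a centriole protein, lay between -0.32 and -0.23, although the other Osbpl1a probe gave -0.04 with mixed signs.

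Upper-dose values did not always resemble the lower ones. Cadm1, the 1 gene of the 20 called in the step between doses, had 0.11 and 0.01 there, C5l1 0.01 and 0.03, and Fgl1 -0.01 and 0.13. In the fit of 7 groups 7 of the 20 were called, 5 higher (Cyp1a1, Tfrc, Fgl1, Insig2 and Nifk) and 2 lower (Sstr3 and Agrn). The upper-dose arrays were hybridised against DMSO RNA of the same rats too, and the part of that RNA in these values was not tested.

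**Figure D4:**
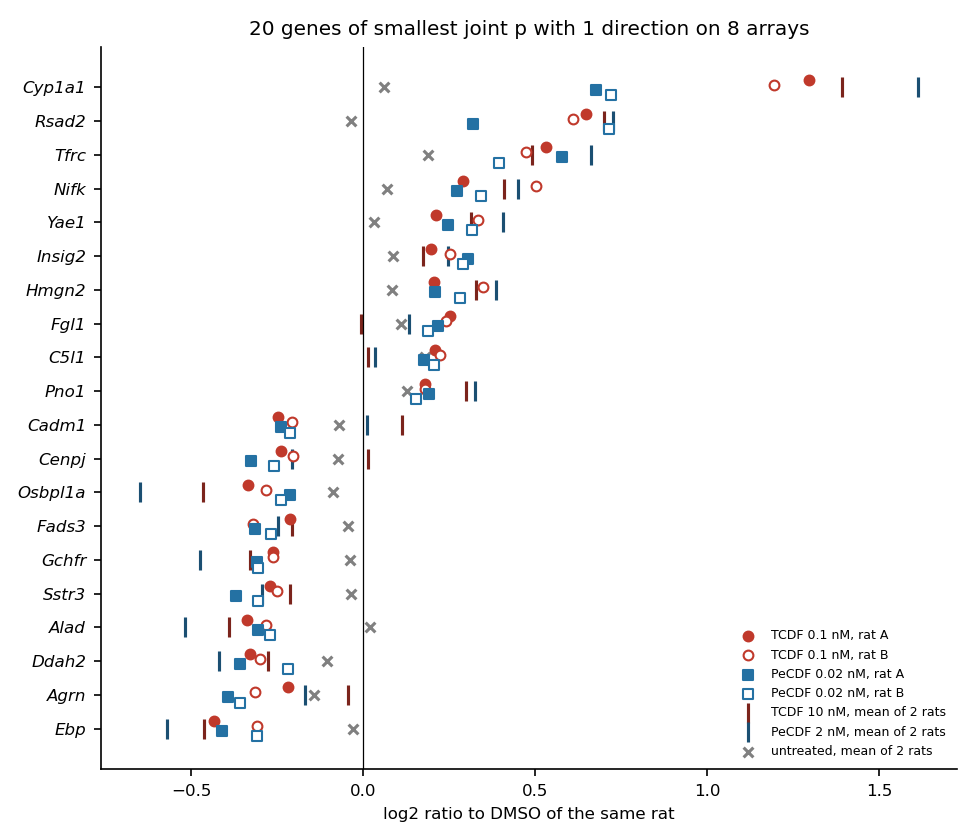
Log2 ratios to DMSO of the 20 genes with the smallest joint p and the same sign on all 8 arrays, with 4 lower-dose values per gene, ticks for the upper-dose means and crosses for untreated cells. The genes were chosen for values on 1 side of 0, and the upper-dose ticks of Cadm1, at 0.11 and 0.01, lie on the other side.

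Next are the lower-dose values of 20 genes chosen for their large upper-dose means among genes called with both TCDF 10 nM and PeCDF 2 nM, a choice that favours a step between doses. Of these, 4 had the same sign on all 8 lower-dose arrays (among them Cyp1a1, Cyp1a2 and Ccn2). Slc37a4, the glucose-6-phosphate transporter of the endoplasmic reticulum, had -0.07, -0.08, 0.02 and -0.01 at the lower doses against -0.90 and -0.79 at the upper, a step of -0.81 ± 0.07. Emp1, an epithelial membrane protein, had values from -0.22 to 0.15 at the lower doses and a step of -0.95 ± 0.09. Slc2a5, a fructose transporter, had -0.56 and -0.13 with TCDF 0.1 nM in rats A and B and -0.33 and -0.04 with PeCDF 0.02 nM, against -1.41 at TCDF 10 nM. Selenbp1, a methanethiol oxidase, and Defb1, a defensin, had joint values of 0.06 ± 0.06 and 0.09 ± 0.09 and steps of 0.82 ± 0.09 and 0.77 ± 0.07.

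Ccn2, a matrix-associated growth factor, differed from these genes in that it was low on all 8 arrays already, with -0.51 and -0.60 for TCDF 0.1 nM and -0.34 and -0.25 for PeCDF 0.02 nM. It had -1.34 and -0.89 at the upper doses (step -0.69 ± 0.14, adjusted p = 0.0668). In all, 249 genes (0.716%) were called between the upper and lower doses, 77 higher (0.221%) and 172 lower (0.494%), and they included 15 of the 20 genes, 6 higher and 9 lower. The count was 3 with median centring in place of loess. In the lists, the step was called in 3 of 12 battery genes, all higher (Cyp1a2, Cyp1b1 and Nqo1). It was called in 10 of 19 genes of glucose and fructose metabolism, all lower, among them Pfkfb1 (-0.71 ± 0.04) and Gckr (-0.58 ± 0.06), whose lower-dose joint values were -0.13 and -0.15.

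Several lipid genes were low in rat A with both furans and near DMSO in rat B. Fasn, fatty acid synthase, had -1.34 with TCDF 0.1 nM and -0.98 with PeCDF 0.02 nM in rat A, and -0.12 and -0.08 in rat B. Fads1, a fatty acid desaturase, had -1.21 and -0.98 in rat A against -0.09 and -0.08 in rat B, and Pnpla3, a lipid droplet acyltransferase and lipase, -1.57 and -1.62 against -0.16 and -0.05. In each of these genes rat A was low with both furans and rat B was not. Cyp7a1, which starts bile acid synthesis, had -1.20 and -1.08 in rat A but 0.20 and 0.54 in rat B. Ccl2, a monocyte chemokine, went the other way, with 0.54 and 0.46 in rat A and -0.69 and -0.44 in rat B.

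A test of rat A minus rat B, with the furans as the spread, called 31 genes (0.0891%), 10 higher and 21 lower in rat A. It compares these 2 animals and their cultures only. The difference was -1.49 ± 0.06 for Pnpla3 (adjusted p = 0.00885 by limma), -1.51 ± 0.12 for Cyp7a1 (0.0479) and -1.01 ± 0.08 for Fads1 (0.0484), whereas Fasn, at -1.06 ± 0.12, missed (0.087). The count was 0 without background correction and with Agilent's log ratios, and leaving out 1 of the 4 values gave 0 to 6030 calls. Of 18 genes of fatty acid synthesis 12 were lower in rat A with both furans, against 29.3% of all genes. Of 21 genes of cholesterol synthesis with the LDL receptor 16 were. The median differences of these lists were -0.29 and -0.26, against 0.00 over all genes. Other lists lay above that share too, among them heme and iron (9 of 16), bile acids (10 of 18) and NRF2 targets (10 of 20). Some lay below it, such as the chemokines with Map3k8 (1 of 9). Fdps and Dhcr7 of the sterol pathway averaged -0.65 and -0.66 in rat A and 0.15 and -0.11 in rat B.

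Untreated cells, which received no furan and were set against DMSO RNA of the same rat, had part of this pattern. Their label names no DMSO, so these ratios may also hold an effect of the solvent, which was not tested. By the days of feature extraction, the untreated and TCDD arrays fall in another session than the furan arrays. Session and treatment cannot be told apart in these comparisons. In rats A and B untreated cells gave -0.97 and 0.01 for Pnpla3, -0.53 and 0.06 for Fasn, and -0.52 and -0.07 for Fads1. Cyp7a1 had 0.07 and 0.24 there, and Ccl2 -0.05 and -0.13, without the opposite signs seen with the lower-dose furans. At the upper furan doses Ccl2 again had opposite signs, with 0.28 in rat A and -0.51 in rat B. With TCDD 0.01 nM it had -0.14 and -0.03. The upper furan doses gave -1.33 and -0.68 for Pnpla3 and -1.43 and -1.06 for Cyp7a1 in rats A and B, and TCDD 0.01 nM -1.20 and -0.27 for Pnpla3 and -0.97 and -0.86 for Cyp7a1. Pnpla3 was thus lower in rat A in each of these sets, whereas Cyp7a1 was low in both rats at the upper doses and with TCDD. The median of fatty acid synthesis in untreated cells was -0.13 in rat A and 0.00 in rat B, and that of cholesterol synthesis 0.02 and -0.01. The part of the DMSO RNA of rat A in the lipid values was not tested.

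**Figure D5:**
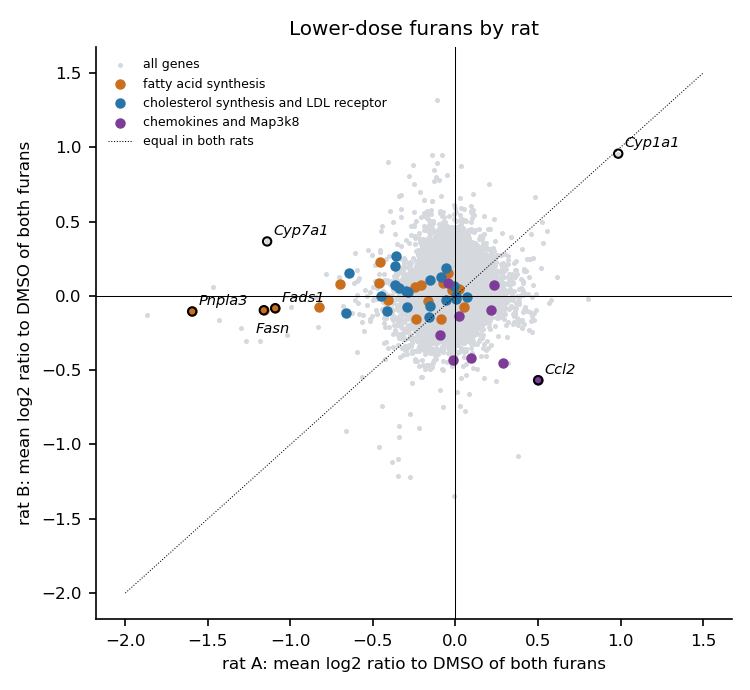
Mean log2 ratio to DMSO of both lower-dose furans in rat A (horizontal) and rat B (vertical) for all genes (grey) and for 3 gene lists (colours), with the dotted line where the rats are equal. Cyp1a1 lies on that line near 0.97, whereas Pnpla3, Fasn and Fads1 lie to the left at -1.60, -1.16 and -1.09 in rat A and near -0.1 in rat B.

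The other gene lists held no call in the joint test. Their counts at an unadjusted p under 0.05 stand against 5.89% of all genes higher and 6.48% lower, and lists with 1 gene in a direction are near that share. Fatty acid synthesis had 6 of 18 genes lower at an unadjusted p under 0.05 and 0 higher, and cholesterol synthesis 5 of 21 lower and 0 higher, with medians of -0.12 and -0.11. Glucose and fructose metabolism had 6 of 19 lower and 2 higher (median -0.05). NRF2 targets had 5 of 20 lower and 2 higher (median -0.01). Tkt, of the pentose phosphate pathway, had -0.40, -0.23, -0.22 and -0.23, so it lay below DMSO with both furans in both rats.

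Targets of the CAR and PXR receptors had 5 of 13 genes higher and 2 lower (median 0.05), with the cytochrome Cyp3a23-3a1 at 0.13, 0.30, 0.29 and 0.30 and at 0.26 in untreated cells. Heme and iron genes had 1 of 16 higher, Tfrc, and 4 lower, among them Alad and Urod, a later enzyme of heme synthesis (-0.21 ± 0.05). The cell cycle had 5 of 23 lower and 0 higher, with Cdk1 at -0.17 ± 0.03 on a probe whose partner gave 0.02, and Ccnd1, a cyclin of early G1, at -0.17 ± 0.03 and -0.27 on its other probe. The chemokines with the kinase Map3k8 had 1 of 9 higher and 1 lower, and their medians by rat were 0.09 in A and -0.26 in B. Acute phase genes had 0 of 20 at an unadjusted p under 0.05 in either direction, but 7 of them, among them haptoglobin (Hp) and hemopexin (Hpx), were saturated in all 16 channels, so that their ratios on the probes used measure nothing. For Saa4, also among the 7, another probe was unsaturated. It had -0.38 and 0.48 with TCDF 0.1 nM in rats A and B, and 0.37 and 0.52 with PeCDF 0.02 nM. The 9 acute phase genes without saturation had joint values from -0.04 to 0.05. A joint value near 0 can hold opposite values in the rats. Crp, C-reactive protein, averaged -0.45 in rat A and 0.44 in rat B (adjusted p = 0.0891 by limma for the difference). For rat A minus rat B, 2 of 20 acute phase genes were higher and 3 lower at an unadjusted p under 0.05. Among all genes 8.41% were higher and 9.31% lower. Ligands of the EGF receptor had 2 of 8 genes higher and 0 lower, the unfolded protein response 3 of 17 higher and 2 lower, the circadian clock 2 of 14 higher and 1 lower, and bile acid genes 1 of 18 higher and 3 lower.

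The furan channel was well above background for 80.9% to 99.95% of probes on the 8 arrays, and the SD of the log2 ratios was 0.118 to 0.176, highest on the red TCDF array of rat A. All 10 hepatocyte markers were well above background in the 16 channels, and 5 of them (Alb, Ttr, Tf, Apoa1 and Serpina1) were saturated in at least 1 channel. Markers of Kupffer cells and leukocytes (11 of 11), stellate cells and fibroblasts (8 of 8), endothelial cells (5 of 6) and cholangiocytes (5 of 6) were above background too, and 0 of them were saturated. The joint values of all these markers ran from -0.27 to 0.20, and an unadjusted p under 0.05 was reached by 2 of 10 hepatocyte, 3 of 11 Kupffer, 4 of 8 stellate, 2 of 6 endothelial and 1 of 6 cholangiocyte markers, against 12.4% of all genes. Their part in the results was not tested. In pooled RNA a smaller share of a cell type and less RNA per cell cannot be told apart.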

How the data were processed

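The authors' scanner files give each spot's mean signal and local background as intensity, per the file headers. Per the labels, Alexa555 was read in green and Alexa647 in red. The deposited log ratios are log10 values, and in the series table they are turned to test RNA over DMSO RNA. Agilent Feature Extraction is A.7.5.1 per the file headers and 9.1 per the submitters' processing notes. By the days of feature extraction in the headers, all furan arrays fall in 1 session and all untreated and TCDD arrays in the other. These are the days when the image software was run, and days of scanning or hybridisation were not used. Within the furan session dye orientation coincides with the day of extraction.

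Intensities were corrected by normexp (offset 50) and normalized by loess within arrays in limma 3.58.1 (R 4.3.3), leaving out 1067 outlier spots (0.0921%). Dye-swap values were averaged per rat (859 missing, 0.176%), and the brightest probe of a gene was kept, after a filter that left 37820 of 41012 probes. Of 34805 genes 15219 had a symbol, given by RefSeq names for 18539 probes. The joint test was an intercept fit of 4 values (prior degrees of freedom 2.81). Each furan and the upper minus lower step were contrasts in a fit of 7 group means over 14 values. Calls were made at a Benjamini-Hochberg adjusted p under 0.05. The tests were run on simulated data with independent values. That check cannot cover what the values of the same rat share.

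The labels give the animal, so each ratio is within a rat. The fits for the joint test, for each furan and for the dose step held no term for the rat. Values of the same rat thus entered as independent, although the correlation across genes of the A minus B differences of the furans was 0.563. Genes were named by rule: the genes called (up to 10 each way together, 5 each way per furan), the 10 smallest joint p each way with 1 sign on 8 arrays where none was called, the AHR genes, the 3 smallest joint p of each other list, and the 10 largest upper-dose changes each way. Genes named for the rat difference or for a joint mean over 1.5-fold were chosen after their values were seen. Members, lists and tests were chosen with earlier results of these data known. The test of rat A minus rat B, and the session-alone fit of the step, were added after seeing the data. Some genes that the naming rule gives are not reported here.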

Additional observations from a re-analysis of the deposited data

Results flagged for a closer look

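Among 31 genes examined in both lower-dose groups, 1 array stood apart from the other 3 of its group, and chance alone gives such a gap in about 1 in 20 groups. It was Slc7a5 with PeCDF 0.02 nM, at -0.0569 on the green array of rat B against 0.02 to 0.04 on the others.

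The genes given next are those named by the rule in which the rats differed at the lower doses. The rule takes most genes by joint p, which favours values even across rats, so their number does not describe all genes. Of 34781 genes tested for rat A minus rat B with limma, 6162 had an unadjusted p under 0.05. Fads1 had -1.01 for rat A minus rat B (adjusted p = 0.0484 by limma) and Serpina5, a protease inhibitor, -0.58 (adjusted p = 0.0484), with both genes below DMSO in both rats. In 4 other genes every array of rat A lay on the opposite side of 0 from every array of rat B, and the test of the difference did not pass. These were Gsta2 at -0.51 (adjusted p = 0.0961), Ugdh at -0.28 (adjusted p = 0.106), the cytochrome Cyp2a1 at -0.56 (adjusted p = 0.087) and Fam117b at 0.28 (adjusted p = 0.114).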

How the results depend on the processing

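The joint count for both furans stayed at 0 under every alternative except the contrast in the fit of 7 groups (53), the array-level fit with a dye term (2499, which treats the orientations of a rat as separate samples) and leave-outs (0 to 6159). The highest came without rat A, which leaves 2 values of 1 animal, and leaving out TCDF 0.1 nM of rat A alone gave 764. For TCDF 0.1 nM the count was 2 without background correction, 0 with Agilent's log ratio, the deposited series values, median centring, no filter, every probe on its own or the second session alone, 1426 with the array-level fit, and 33 (without rat A) to 42 (without rat B) in leave-outs. For PeCDF 0.02 nM it was 2 without background correction, 1624 with the array-level fit, and 0 to 157 in leave-outs (157 without rat B). The step count was 113 with Agilent's log ratio and with the series values, 3 with median centring, 1990 with the array-level fit, 116 in the second session alone, and 2 to 5 in leave-outs (2 without rat A, 5 without rat B). The count for rat A minus rat B was 0 without background correction, with Agilent's log ratio and with the series values, 55 with median centring, 10 with marked spots kept, 17 with every probe on its own, and 0 to 6030 in leave-outs (0 without either furan of rat B, 1256 without TCDF and 6030 without PeCDF of rat A). The cause of these shifts was not tested. With the animal as a replicate block the counts were 0 jointly, 1, 0 and 255, and no call of a gene named for the joint test changed.

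Of 527 joint values of 31 named genes under alternatives, 515 kept their direction. The 12 that reversed were of genes near 0 or of opposite sign in the rats. Ugdh had -2.81e-06 with Agilent's log ratio and -2.811e-06 with the series values, and -0.136 to 0.143 in leave-outs, the extremes being without rat B and without rat A. Cyp2s1 had -0.0058 with median centring. Cyp1b1 had -0.0364 with the stricter filter, which takes its other probe, and -0.0339 (without rat A) to 0.271 (without rat B) in leave-outs. Leave-outs gave -0.418 (without rat B) to 0.0902 (without rat A) for Gsta2, and -0.0448 (without rat A) to 0.118 (without rat B) for Slc7a5. With 2 rats, saturation limits the size of Cyp1a1 and, at the upper doses, of Cyp1a2, and leaves the brightest secreted proteins unmeasured on the probes used.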
